A study of Mus musculus with 42 samples.

Results

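Among the SMARCA2/4 peaks called in hippocampus of Ts65Dn;Brwd1+/- mice, 943 of 1873 shared no base with a SMARCA2/4 peak of euploid or of Ts65Dn mice. They were chosen by position alone, as peaks of the Ts65Dn;Brwd1+/- list with no overlap of 1 bp or more in either of the other lists, so their absence from those lists is the rule and not a result. The 3 lists together held 25830 peaks, of which 22667 were euploid, 1290 Ts65Dn and 1873 Ts65Dn;Brwd1+/-. By the same rule 603 peaks were found only in the Ts65Dn list. Of the 943 peaks, 787 lay on placed chromosomes (83.5%, 95% Wilson interval 81.0 to 85.7%), 155 on unplaced scaffolds and 1 on the mitochondrial genome. The remaining 930 peaks of the Ts65Dn;Brwd1+/- list are called the shared peaks of that list below.

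The mice had a mixed DBA/2J and B6EiC3Sn/J background. Euploid mice had the normal chromosome number, Ts65Dn mice carried a marker chromosome with a further copy of distal chromosome 16 and proximal chromosome 17, and Ts65Dn;Brwd1+/- mice were Ts65Dn mice that also carried the repro5 mutant allele of Brwd1 on 1 of their copies, in every cell and from conception. For ChIP-seq with a custom antibody to SMARCA2/4, hippocampus of 1 side was pooled from 2 males of 6 to 8 weeks for each library, and each genotype had 4 such libraries after immunoprecipitation and 4 of input. ATAC-seq used NeuN+ nuclei sorted from the hippocampus of adult males of 6 weeks (3 libraries a genotype), and RNA-seq used forebrain cultures from embryonic day 16 (3 libraries a genotype). For ChIP-seq and ATAC-seq 1 peak list per genotype was deposited, so no list carries an error between replicates. Wilson intervals cover counting error only, and the depth of these libraries is unknown from the lists.

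SMARCA2 (BRM) and SMARCA4 (BRG1) are the alternative ATPases of the BAF complexes, which use ATP to slide or evict nucleosomes at promoters and enhancers. BRWD1 is a reader of modified histones with bromodomains and WD40 repeats, and its gene lies in the triplicated end of chromosome 16. Neurons exchange several BAF subunits when they leave the cell cycle, and mutations of BAF subunit genes are a known cause of intellectual disability.

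Sequences are shown for 8 of the 943 peaks, chosen because each stands for a kind of site described below. The first pair is from the satellite stretch of chromosome 9 and belongs to the 6 placed peaks of lowest q-value, as does the third, at a sequence related to 18S ribosomal RNA. Those on chromosomes 3 and 7 hold simple repeats, and the last 3 are single-copy sites, at a promoter 14 bp from a euploid peak and at 2 genes described below. Peaks are in capitals with 20 bases of flank on each side in lower case, on the plus strand of GRCm38 (mm10), read from the RefSeq copy of that assembly.
Gm10717, coding exon, chr9:3025827-3025920: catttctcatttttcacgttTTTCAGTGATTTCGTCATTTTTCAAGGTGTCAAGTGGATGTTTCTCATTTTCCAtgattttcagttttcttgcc
Gm10717, coding exon, chr9:3026296-3026383: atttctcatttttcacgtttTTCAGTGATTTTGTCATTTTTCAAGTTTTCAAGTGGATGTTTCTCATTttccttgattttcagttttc
Gm42418, exon of a long non-coding RNA, chr17:39847010-39847106: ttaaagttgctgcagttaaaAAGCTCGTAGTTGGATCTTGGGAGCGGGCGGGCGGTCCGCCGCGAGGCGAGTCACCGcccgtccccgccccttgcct
Between genes, chr3:125228372-125228473: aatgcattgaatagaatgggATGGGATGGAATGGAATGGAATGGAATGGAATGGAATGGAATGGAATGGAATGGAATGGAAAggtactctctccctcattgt
Between genes, chr7:112183605-112183721: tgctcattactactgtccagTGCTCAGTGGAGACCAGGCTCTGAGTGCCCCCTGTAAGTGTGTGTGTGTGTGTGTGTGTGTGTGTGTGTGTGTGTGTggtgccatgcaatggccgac
Dusp11, exon of a non-coding transcript, chr6:85961935-85962022: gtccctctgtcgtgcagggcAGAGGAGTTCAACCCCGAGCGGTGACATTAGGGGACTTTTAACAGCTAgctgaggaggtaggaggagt
Tulp4, 59 bp upstream of an annotated start, chr17:6107297-6107386: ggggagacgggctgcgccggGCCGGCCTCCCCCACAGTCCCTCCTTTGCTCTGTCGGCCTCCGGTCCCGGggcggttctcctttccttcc
Ptprd, intron, chr4:76365978-76366137: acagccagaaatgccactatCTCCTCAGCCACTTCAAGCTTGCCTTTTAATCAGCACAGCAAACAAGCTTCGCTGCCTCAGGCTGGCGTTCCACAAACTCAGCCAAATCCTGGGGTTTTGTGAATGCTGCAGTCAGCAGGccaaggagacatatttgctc

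The printed stretches of the satellite pair, flanks included, shared 39 words of 12 bases, of 83 in the first and 77 in the second. The chromosome 3 peak held the unit GGAAT 10 times, and the chromosome 7 peak ended in a run of GT.

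The peaks were short and of modest enrichment. On placed chromosomes the median fold enrichment, a ratio of reads over local background from the peak caller, was 3.73 (quartiles 3.30 and 4.20, range 1.67 to 7.80), against 3.92 and a highest value of 17.4 in the 875 placed shared peaks. The median was 3.74 in the placed euploid list and 3.70 in the placed peaks found only in Ts65Dn. The median length was 62 bp, against 74 bp in the shared peaks, 93 bp in the euploid list and 58 bp in the peaks found only in Ts65Dn. The shortest length in the list, 48 bp, was that of 147 of the 787. A q-value under 0.05 was given to 377 of 787 (47.9%, 44.4 to 51.4%), to 62.1% of the placed shared peaks (58.8 to 65.2%), to 20.7% of the 598 placed peaks found only in Ts65Dn (17.7 to 24.2%) and to 87.8% of the placed euploid list. Some enrichment values recurred. The 4 values 3.60, 3.90, 4.20 and 4.50 held 209 of the 787 peaks (26.6%), were spaced by 0.300, and each had a single q-value, which was 0.277 at 3.60 (49 peaks), 0.0786 at 3.90 (59 peaks), 0.0187 at 4.20 (63 peaks) and 0.00466 at 4.50 (38 peaks).

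**Figure D1:**
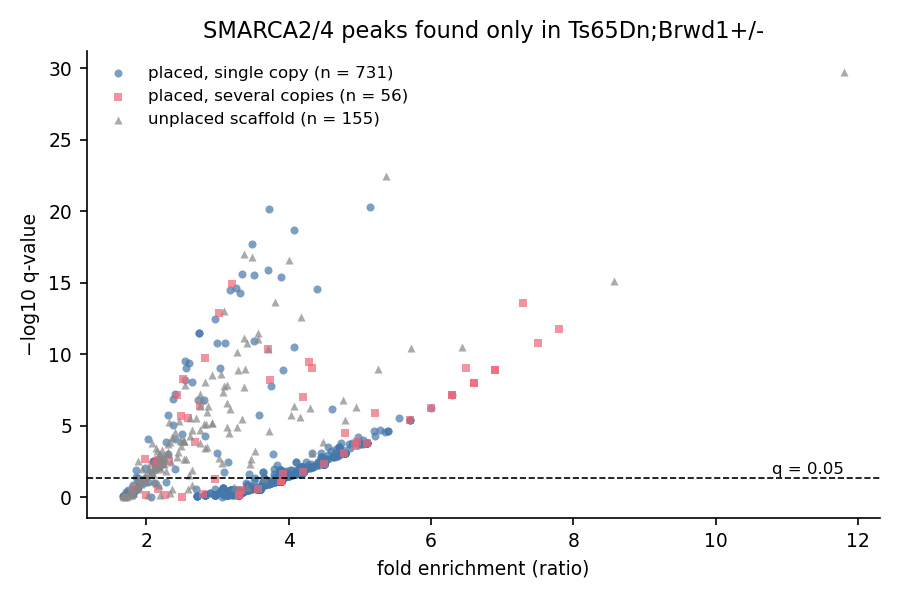
Each point is a SMARCA2/4 peak found only in Ts65Dn;Brwd1+/- (943 less the mitochondrial one), with its fold enrichment (ratio) on the horizontal axis and −log10 of its q-value on the vertical axis. Single-copy placed peaks follow a steep rise from a fold of about 2 and a shallow one that reaches 6.30, peaks of several copies hold the highest placed values up to 7.80, and the scaffold peak at 11.8 stands alone.

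Most of these peaks were near a euploid peak. The gap to the nearest euploid peak had a median of 554 bp, and it was at most 100 bp for 24.9%, 300 bp for 40.3% and 1000 bp for 55.4% of the 787 (51.9 to 58.8%). A Ts65Dn peak lay within 1000 bp of 11.6% of the 787, from a list with far fewer peaks. Just inside the rule were 5 peaks that abutted a euploid peak, at Ccdc92b, Ptpa, Extl1, Tmem88b and between genes on chromosome 5, with folds from 3.14 to 4.80. Just outside it were peaks at Rad51b and Rimbp2 that shared 1 bp with a Ts65Dn and a euploid peak, with folds of 3.43 and 3.60. Within 10 bp of another list's peak lay 33 of the 787 placed peaks, and 29 placed peaks of the list were left out for a shared stretch of 1 to 10 bp.

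**Figure D2:**
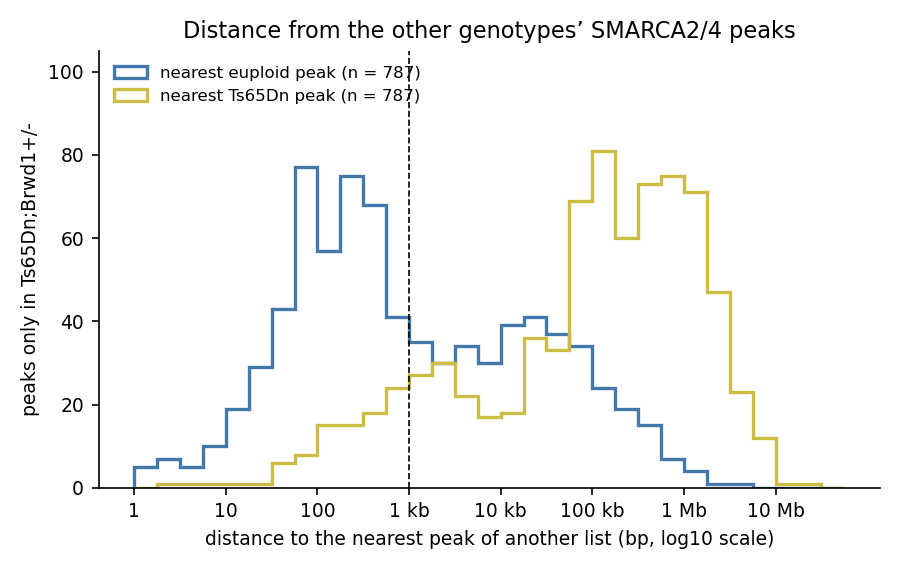
Number of the 787 placed peaks found only in Ts65Dn;Brwd1+/- by the distance (bp, log10 scale, from 1 bp to 10 Mb) to the nearest euploid and to the nearest Ts65Dn peak. The euploid distances have their bulk under the dashed line at 1 kb (436 of 787), whereas 91 of 787 Ts65Dn distances lie there.

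The highest enrichments on placed chromosomes were found in repeated sequence. Of the 10 placed peaks of highest fold, 9 had a median 31-base word in 2 or more places of the assembly, and none of the 10 overlapped an ATAC peak of any genotype. The highest was chr1:52414186-52414237, between genes, at 7.80 (q = 1.63e-12). It was followed by the GGAAT array on chromosome 3 at 7.50, whose median word occurred in 152 places, and by a peak in an intron of Gm26870 on chromosome 9 at 7.30. GGAAT arrays also made up chr16:57241945-57241993 at 6.60 and a peak in an intron of Ano2, a calcium-activated chloride channel, at 6.50. The others were between genes on chromosomes 15 and 2 (6.90 each, the latter with its median word in 929 places) and on chromosome 5 (6.60), and in a UTR of Prrc2c (6.30). The only one of the 10 in single-copy sequence was chr2:11430012-11430082 at 6.30, between genes and 237 bp from a euploid peak, and another peak of 6.30 tied with it. Over all 787 placed peaks, 56 were of several copies (7.12%), against 11.7% of the placed shared peaks, 3.34% of peaks found only in Ts65Dn and 0.619% of the euploid list. A share of 21.0% of the 787 was soft-masked over more than 50% of its length, against 18.6, 11.9 and 3.82% in the same 3 sets. The several-copy peaks had a median GC content of 39.9%, against 54.1% in the single-copy ones.

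Of the placed peaks, 70 came from 3 stretches where the Ts65Dn;Brwd1+/- list was dense. On chromosome 11, chr11:3100448-3199970 held 37 of them, 24 at Sfi1 (a centrin-binding protein gene, 3131850 to 3193463) and 5 at the pseudogene Fau-ps2, where the whole Ts65Dn;Brwd1+/- list had 40 peaks, the Ts65Dn list 3 and the euploid list 6. Their folds were low, with a median of 1.99, and 18 of 37 had a q-value under 0.05. At Fau-ps2 the 5 folds were 1.70, 1.72, 1.67, 1.99 and 2.41. On chromosome 9, chr9:3000630-3036580 held 28, with 40, 6 and 11 peaks in the 3 lists in the same order, all 28 mostly soft-masked, and 26 of 28 with a q-value under 0.05. Its sequence repeated with a period of 234 bp, at which 70.2% of bases were the same as against a median of 31.3% over shifts of 20 to 500 bp. Tandem arrays of a unit of this size next to centromeres are known as the mouse major (gamma) satellite. Predicted genes fill the stretch in the annotation, 10 of its peaks being assigned to Gm10717. Of its 28 peaks, 14 were of several copies by the median word, as were 3 of the 37 on chromosome 11. Diverged repeats therefore also count as single copy in the sets named so here. On chromosome 14, chr14:19416573-19419671 at Gm21738 held 5, against 13, 5 and 9 peaks in the lists. Pericentromeric satellites are compacted in heterochromatin in most cells, and the assembly holds only a small part of them.

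Of the 155 scaffold peaks, 117 lay on JH584304.1. There the Ts65Dn;Brwd1+/- list had 149 peaks, the Ts65Dn list 17 and the euploid list 27. The 117 had a median fold of 2.36 and 94 of them had a q-value under 0.05 (80.3%, 72.2 to 86.5%), among them the highest fold (11.8) and the lowest q-value (1.78e-30) of all 943, at 76466 to 76535 on the scaffold. The scaffold resembled the dense stretch of chromosome 11. Of its 31-base words 51.8% occurred on chromosome 11, nearly all of these in chr11:3100001-3250000 (49.6% of the words), whereas chromosome 5, the next, held 10.4%. Of the 117 peaks, 55 held a word of that stretch as did 23 of the 32 shared peaks of the scaffold, and 4 of the 37 chromosome 11 peaks held a word of the scaffold. The other scaffolds with the most peaks were GL456392.1 with 9, GL456390.1 with 8, GL456383.1 with 7, GL456396.1 with 6 and GL456389.1 with 5, against 2, 1, 0, 1 and 2 euploid peaks on them. Their sequence was not used here.

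**Figure D3:**
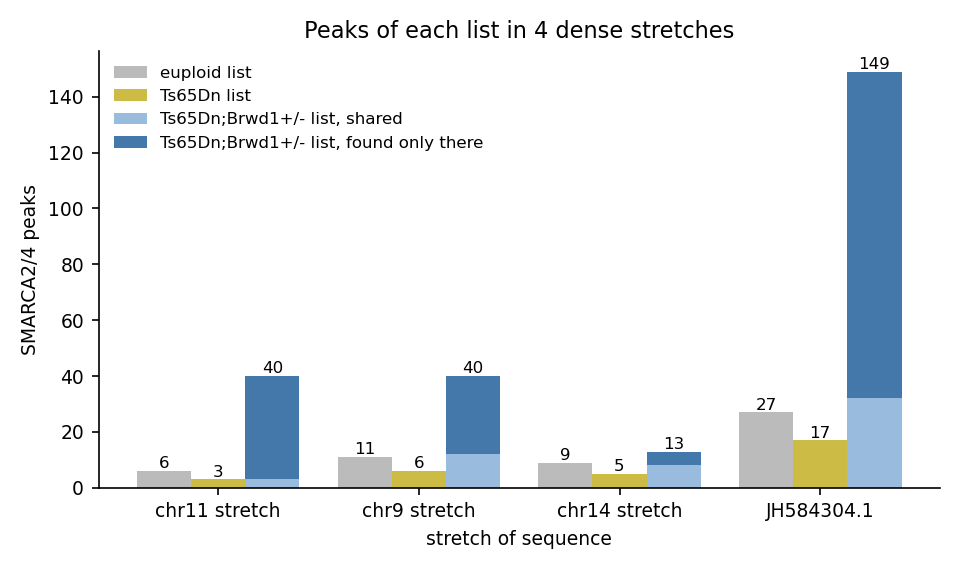
Bars give the number of SMARCA2/4 peaks of each list in the 3 dense stretches of chromosomes 11, 9 and 14 and on the scaffold JH584304.1. In each of the 4 the Ts65Dn;Brwd1+/- bar is the tallest (40, 40, 13 and 149), although that list is smaller than the euploid list over the genome (1873 against 22667 peaks).

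The ribosomal RNA-like site was Gm42418, annotated as a long non-coding RNA on chromosome 17 (39846958 to 39848788) and overlapping the RefSeq pseudogene Rn18s-rs5 (39846354 to 39848202), a relative of 18S ribosomal RNA. It held a peak of fold 3.34 (q = 2.42e-16) and another of 3.32 (q = 5.66e-15), with euploid peaks 99 and 87 bp away. The mitochondrial peak, at 9436 to 9483, had a fold of 3.03 (q = 5.53e-15). How far these sites, the satellites and the scaffolds reflect binding was not tested.

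Promoters were the commonest place. By the deposited annotation 419 of 787 (53.2%, 49.7 to 56.7%) lay within 3 kb of a transcript start, 228 (29.0%) in a gene body beyond it and 140 (17.8%, 15.3 to 20.6%) between genes. The placed shared peaks had 52.6% at promoters and 22.4% between genes, the peaks found only in Ts65Dn 46.5, 36.1 and 17.4%, and the euploid list 60.2, 27.2 and 12.6%. Within the 419, 155 were within 250 bp of such a start. At the centre base of the peak the GENCODE annotation (vM21, GRCm38) had an intron for 442 (56.2%), a coding exon for 43, a UTR for 58, another exon for 46 and no gene for 198. The 429 single-copy peaks within 1000 bp of another list's peak were at promoters in 65.7% (61.1 to 70.1%), and the 302 farther away in 37.7% (32.5 to 43.3%), with 40.4% of these in gene bodies.

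The promoter peaks of highest enrichment were at genes of several functions. Distances are to the nearest transcript start in the deposited annotation, which may lie within the gene. Fmnl1, a formin that builds actin filaments, had a peak of fold 6.00 (q = 5.59e-07) 1110 bp downstream of a transcript start, in 93.9% masked sequence. Grb2, the adaptor between receptor tyrosine kinases and RAS, had one of 5.70 (q = 3.86e-06) 34 bp downstream of a start within the gene, 9475 bp from the nearest euploid peak and overlapping ATAC peaks of both trisomic genotypes. Wbp1l had one of 5.55, 47 bp downstream of a start, in ATAC peaks of all 3 genotypes and 26145 bp from the nearest euploid peak. Dst (dystonin, a cytoskeletal linker) and Dusp11 (an RNA phosphatase) each had one of 5.40, the latter 14 bp from a euploid peak. Fth1 (ferritin heavy chain) had one of 5.28 that overlapped the Ts65Dn;Brwd1+/- ATAC list alone, 52 bp from a euploid peak. Rara (retinoic acid receptor alpha) had 5.20, Zeb2 and Nfia, transcription factors of neural and glial development, 5.10 each, and Gm10717 in the satellite stretch 5.14. Of the 10, 5 overlapped the ATAC list of Ts65Dn;Brwd1+/- mice (Grb2, Wbp1l, Dusp11, Fth1 and Nfia), and 3 of these that of euploid mice too. Creb3l2 and Lrrc4b had promoter peaks of the same fold as Zeb2 and Nfia (5.10, q = 1.55e-04) and fell outside the 10 by the order of ties. That of Creb3l2 overlapped the ATAC lists of euploid and Ts65Dn;Brwd1+/- mice, and that of Lrrc4b none.

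The 787 placed peaks named 540 genes by promoter or gene body, of which 484 had 1 such peak and 15 had 3 or more. Of the 540, 439 (81.3%, 77.8 to 84.4%) also held a euploid peak elsewhere in the gene, 137 (25.4%) a Ts65Dn peak, and 96 (17.8%) neither. Outside the dense stretches the most were at Tcf4 and Tcte2, with 4 each in the gene body. Tcf4, an E protein of neuronal differentiation, had them in introns (folds 3.60, 3.19, 2.96 and 3.19, none with q under 0.05) beside 85 euploid peaks. Those of Tcte2 had folds of 2.00, 1.81, 2.10 and 1.98, of which 2 had q under 0.05, beside 4 euploid peaks. Zeb2 held 3, of folds 4.19, 5.10 and 3.92, all with q under 0.05 and none overlapping an ATAC peak, beside 26 euploid peaks. Vgll4, a cofactor that binds TEAD factors, and Sbk1, a kinase gene expressed in brain, held 3 each.

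In the lists of genes for the tissue, synaptic adhesion had the most genes with such a peak, 8 of 50, and of all genes tested in the culture RNA 2.73% held such a peak. Of the same 50 genes 35 held a euploid peak and 10 a Ts65Dn peak, and gene length was not taken into account. Among the 8 were Ptprd, a receptor phosphatase of synapse formation (5.10, q = 1.55e-04), Tenm2, a teneurin (4.89, q = 1.66e-04), and Dlg2, a postsynaptic scaffold (4.20, q = 0.0187). Opcml, Csmd1, Nlgn2 and Tenm3 had folds of 4.20 or less. The Ptprd peak, printed above, overlapped no ATAC peak and lay 84414 bp from the nearest euploid peak. Of the BAF subunits 3 of 28 genes had one, namely Smarcd1 (4.20, 408 bp upstream of a start), Arid1b (3.69) and Smarcd3 (3.52). Glutamate receptors had 2 of 25 (Grik4 at 3.90 and Gria1 at 3.60), immediate early genes 2 of 19 (Egr1 at 4.50, 1473 bp downstream of a start, and Nr4a2 at 3.28), vesicle release 1 of 27 (Syt1 at 3.66), voltage-gated channels 1 of 38 (Kcna1 at 3.60), and GABA receptors (0 of 15) and ribosomal proteins (0 of 46) none. Brwd1 itself held none of the 943, its 1 peak in the Ts65Dn;Brwd1+/- list (fold 9.21) being shared, against 2 in euploid (up to 20.4) and 1 in Ts65Dn (12.5). Smarca2 and Smarca4 had 10 and 3 euploid peaks and none in the other lists.

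About 1 in 3 of the peaks lay in chromatin that was open in neurons. ATAC-seq, in which a transposase cuts accessible DNA, gave a peak at 253 of the 787 in Ts65Dn;Brwd1+/- mice (32.1%, 29.0 to 35.5%), at 285 in Ts65Dn (36.2%, 32.9 to 39.6%) and at 149 in euploid mice (18.9%, 16.3 to 21.8%). The euploid ATAC list had 15479 placed peaks, and the others 29154 and 30209. The placed shared peaks overlapped more often in each genotype, with 48.9% (45.6 to 52.2%), 51.4% (48.1 to 54.7%) and 32.1% (29.1 to 35.3%). The centre base of the peak lay in a Ts65Dn;Brwd1+/- ATAC peak for 28.6% of the 787 and 43.9% (40.6 to 47.2%) of the shared peaks. Overlap moved with length, at 28.8% (24.2 to 33.8%) of single-copy peaks of 60 bp or less and 37.8% (33.2 to 42.7%) of longer ones, against 48.6 and 54.8% of shared peaks, and the part of length in the difference was not tested. Among single-copy peaks with q under 0.05 the overlap was 34.1% (29.3 to 39.3%) against 53.5% (48.8 to 58.1%). Peaks found only in Ts65Dn came near those found only in Ts65Dn;Brwd1+/-, with 31.9, 31.1 and 15.2% for the ATAC lists of Ts65Dn;Brwd1+/-, of Ts65Dn and of euploid mice.

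ATAC peaks at these sites were mostly shared between genotypes. Of the 787, 469 (59.6%) overlapped no ATAC peak, 130 (16.5%) one in all 3 genotypes, 96 (12.2%) one in both trisomic genotypes but not in euploid, and 22 (2.80%, 1.85 to 4.20%) one in Ts65Dn;Brwd1+/- alone. The placed shared peaks had 38 of 875 (4.34%, 3.18 to 5.90%) in Ts65Dn;Brwd1+/- alone, with an overlapping interval. Overlap with the Ts65Dn;Brwd1+/- ATAC list was 33.7% at promoters, 29.4% in gene bodies and 32.1% between genes. On JH584304.1 it was 5.98% (2.93 to 11.8%) of 117, and 14 of the 117 overlapped the euploid ATAC list. Single-copy peaks within 1000 bp of another list's SMARCA2/4 peak overlapped it in 37.8% (33.3 to 42.4%), and those farther away in 27.8% (23.1 to 33.1%). The ATAC lists showed the sorted cells in their promoters: of 5 general neuronal markers 5 had a promoter ATAC peak in Ts65Dn;Brwd1+/-, against 1 of 5 for astrocytes, 1 of 6 for the oligodendrocyte lineage and 0 of 5 for microglia, though also 0 of 3 for interneurons.

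**Figure D4:**
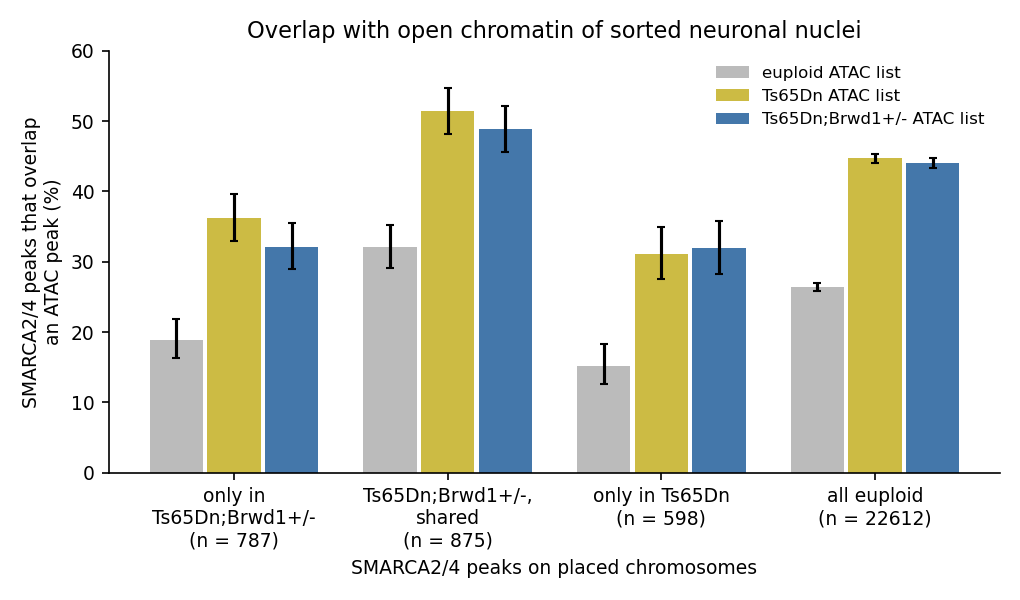
Bars give the percentage of SMARCA2/4 peaks on placed chromosomes that overlap by at least 1 bp a peak of each genotype's ATAC list, and error bars are Wilson 95% intervals of the count. Peaks found only in Ts65Dn;Brwd1+/- reach 18.9, 36.2 and 32.1%, below the shared peaks of the same list (32.1, 51.4 and 48.9%) for every ATAC list.

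In a window of 300 bases around the centre, AP-1 letters were rarer in the 787 peaks than in the shared peaks, while the other motifs and CA repeats had overlapping intervals, except Sp/Klf letters among single-copy peaks. Each motif was searched on both strands, and none of them holds another within its letters. The Sp/Klf core GGGCGG was in 18.8% of the windows (16.2 to 21.7%), against 24.3% (21.6 to 27.3%) of the placed shared peaks, 27.1% of the euploid list and 35.7% of 32851 promoters of 300 bases from RefSeq. Among single-copy placed peaks it was in 19.7% (upper bound 22.7%), against 27.3% (lower bound 24.3%) of the shared ones. The AP-1 site TGACTCA was in 6.23% (4.74 to 8.14%), against 10.3% (8.44 to 12.5%), 9.04% and 5.20% in the same order. A run of 6 CA units was in 10.2% (8.24 to 12.5%), against 7.77, 4.04 and 1.01%. The ETS core CCGGAAG (2.54%) and the E-box CAGCTG (19.1%) came to 3.20 and 20.1% in the shared peaks, and the NRF1 site to 0 of 787 windows, 1 of the shared and 42 of the euploid windows. A match is a run of letters only.

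The triplicated segment held a larger share of these peaks than of the bases. It was taken as chromosome 16 from Mrpl39 (84717576) to the end and chromosome 17 from the centromere to the end of Pde10a (8986648), or 0.825% of the placed bases. Of the 787 peaks 27 lay there (3.43%, 2.37 to 4.95%), 11 on chromosome 16 and 16 on chromosome 17. The placed shared peaks had 2.74% (1.85 to 4.05%), peaks found only in Ts65Dn 2.51% (1.53 to 4.10%) and the euploid list 1.11% (0.977 to 1.25%), while the ATAC lists had 1.01% (euploid), 1.34% (Ts65Dn) and 1.57% (Ts65Dn;Brwd1+/-). The part of the additional DNA copy in these calls was not tested. Of the 27, by the deposited annotation 10 were at promoters, 9 in gene bodies and 8 between genes, 15 had q under 0.05, and 3, 12 and 11 overlapped the euploid, Ts65Dn and Ts65Dn;Brwd1+/- ATAC lists.

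Of the 19 peaks at genes of the segment, those at Tulp4, Tiam1 and Dynlt1b had the highest folds. Tulp4, a tubby-like protein gene, had 2 peaks, of 4.66 (q = 4.02e-04) and of 4.56 (q = 3.27e-04), which lay 59 bp upstream and 816 bp downstream of transcript starts within the gene, the first 39 bp and the second 11619 bp from a euploid peak. Tiam1, an exchange factor for RAC, had 4.79 and 3.40 in introns, the first in sequence of 3 copies. The peak at Dynlt1b, a dynein light chain gene of a near-identical family, had 4.94 and a median 31-base word in 2 places of the assembly. The others were Adamts1 (4.10), T2 (4.14), 4932438H23Rik (3.88), Arid1b (3.69), Cldn14 (3.65), Kcnj6, a potassium channel gene (3.48), Cbr1 (3.45), Pde10a (3.19), Prr18 (3.19), Ets2 (3.09), Tmem181b-ps (3.08), Tiam2 (2.90), Zdhhc14 (2.83) and Lca5l (2.72). The 8 peaks that the deposited annotation put between genes had folds from 3.08 to 4.16. By GENCODE the centre base of 4 of these lay in an intron, and that of the Cldn14 peak lay between genes.

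Expression of the genes with such a peak was taken from the forebrain cultures, which are embryonic whereas the peaks are from adult hippocampus. The gene whose copy number was changed is given first. Brwd1 was at 145, 146 and 124 CPM (counts scaled to the size of the library) in the libraries labelled Ts65Dn;Brwd1+/-, 129, 126 and 125 in Ts65Dn and 93.2, 85.9 and 89.2 in euploid. It was therefore not lower in the libraries labelled Ts65Dn;Brwd1+/- than in Ts65Dn (log2 fold change 0.13, SE 0.08, edgeR adjusted p = 0.186), and above euploid (0.63, adjusted p = 2.97e-04), and a count over the whole gene does not tell a mutant allele from the normal one. Those 3 libraries also stood apart in sex. Xist, which is made by the inactive X, was at 1460 to 2060 CPM in them and at 0.517 to 1.11 in the other 6, and 4 Y-linked genes summed to at most 0.154 CPM in them and to 190 to 223 in the others, although the labels describe pooled sexes. Sex and genotype therefore cannot be told apart in either comparison.

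Against Ts65Dn, 336 of the 468 tested genes with a peak (71.8%) passed the edgeR quasi-likelihood test at an adjusted p of 0.05, and 58.1% of all 17173 genes did. Higher in the libraries labelled Ts65Dn;Brwd1+/- were 209 (27.6% of all genes were) and lower 127 (30.5% of all genes), and the median log2 fold change was 0.18 (0 over all genes). Genes with a euploid peak had 63.7% called, those with a shared peak of the list 69.9% and those with a peak found only in Ts65Dn 69.4%, so the 71.8% lies near the shares of the other small lists. Against euploid 141 of 468 (30.1%) passed, where 29.2% of all genes did. They were 71 higher (14% of all genes) and 70 lower (15.2% of all genes), at a median of 0. Of the 72 tested genes with no euploid or Ts65Dn peak, 48 (66.7%) passed against Ts65Dn and 31 (43.1%) against euploid. The 2 comparisons share the libraries labelled Ts65Dn;Brwd1+/-.

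RNA of neuronal markers differed between the cultures. The 5 general neuronal markers summed to 2928 to 3711 CPM in the libraries labelled Ts65Dn;Brwd1+/-, 790 to 1808 in Ts65Dn and 2795 to 3490 in euploid, and all 5 were higher than in Ts65Dn. Of 6 oligodendrocyte-lineage markers, whose sum was 274 to 362, 98.9 to 106 and 71.4 to 79.9 CPM in the same order, 5 were higher and 1 lower than in Ts65Dn. The 5 astrocyte markers were at 2529 to 3055, 3024 to 3507 and 2325 to 3032 CPM, and 4 were lower and 1 higher than in Ts65Dn. The 3 interneuron markers, at 515 to 534, 73.7 to 149 and 369 to 411 CPM, were all higher than in Ts65Dn. The 5 microglia markers summed to at most 1.00 CPM in Ts65Dn;Brwd1+/-, to at least 2.62 in Ts65Dn and to 5.87 to 10.1 in euploid, 2 of them were at 0 in a library, and the 3 tested were lower than in either genotype. The 3 endothelium markers summed to 1.19 to 1.39, 1.54 to 1.88 and 2.14 to 2.59 CPM in the libraries labelled Ts65Dn;Brwd1+/-, Ts65Dn and euploid. Of the 2 tested, 0 were higher and 1 was lower in each comparison. In bulk cultures fewer cells of a type and less RNA per cell cannot be told apart, and the part of cell type marker levels in these values was not tested.

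Among genes with such a peak, Bcl11b had the largest increase against Ts65Dn. It encodes a zinc-finger factor of deep-layer cortical and striatal neurons, and was at 117, 104 and 109 CPM in the libraries labelled Ts65Dn;Brwd1+/-, 14.6, 13.8 and 8.78 in Ts65Dn and 30.5, 30.6 and 28.1 in euploid. The log2 fold change of Bcl11b was 3.15 (SE 0.16, adjusted p = 5.35e-07) against Ts65Dn and 1.89 (SE 0.15, adjusted p = 2.55e-05) against euploid. Its peak (fold 3.90, q = 0.0786) lay in the gene body, 3822 bp from the nearest of 17 euploid peaks in the gene. Apold1, known as an early response gene of endothelium, was at 2.90, 2.56 and 2.91 CPM, 0.327, 0.939 and 0.309 in Ts65Dn and 1.21, 0.658 and 0.683 in euploid, or 2.45 higher than Ts65Dn on the log2 scale (adjusted p = 2.24e-04). Its peak had a fold of 4.50 and the gene no other.

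Lower than in Ts65Dn were E030030I06Rik, Trpm1 and Atf3. E030030I06Rik was at 0.134, 0.278 and 0.411 CPM against 2.37, 2.96 and 3.05 in Ts65Dn (-3.28, SE 0.31, adjusted p = 1.54e-05), and euploid was at 0.291, 0.570 and 0.501. Trpm1, a cation channel gene, was at 0.936, 1.17 and 0.859 against 6.66, 7.90 and 8.61 in Ts65Dn (-2.98, adjusted p = 2.04e-06). Atf3, a stress-induced transcription factor, was at 0.936, 1.50 and 1.75 against 7.72, 7.11 and 11.3 (-2.63, adjusted p = 1.76e-05), with a peak of fold 3.90 at 428 bp upstream of a transcript start and no euploid peak.

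Against euploid, Cspg4, the NG2 proteoglycan of oligodendrocyte precursors, was highest, at 52.0, 36.8 and 41.6 CPM against 6.21, 6.97 and 7.38 in euploid (log2 fold change 2.66, SE 0.14, adjusted p = 2.67e-06), with 16.4, 18.7 and 19.2 in Ts65Dn. It is among the lineage markers counted above. Mxd3, a MAX partner that opposes MYC, was at 15.9, 13.5 and 15.9 against 3.35, 5.35 and 5.05 (1.71, adjusted p = 6.18e-05), and its peak lay in sequence of 2 copies. Frmpd2, a PDZ scaffold gene, was at 0.803, 1.39 and 1.38 against 6.36, 4.43 and 7.51 (-2.35, adjusted p = 4.30e-04), with a peak of fold 4.50 at a transcript start that overlapped the ATAC peaks of both trisomic genotypes. The genes named for the 2 comparisons were picked for the largest changes past the threshold, so the gap between their groups is not a further result.

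**Figure D5:**
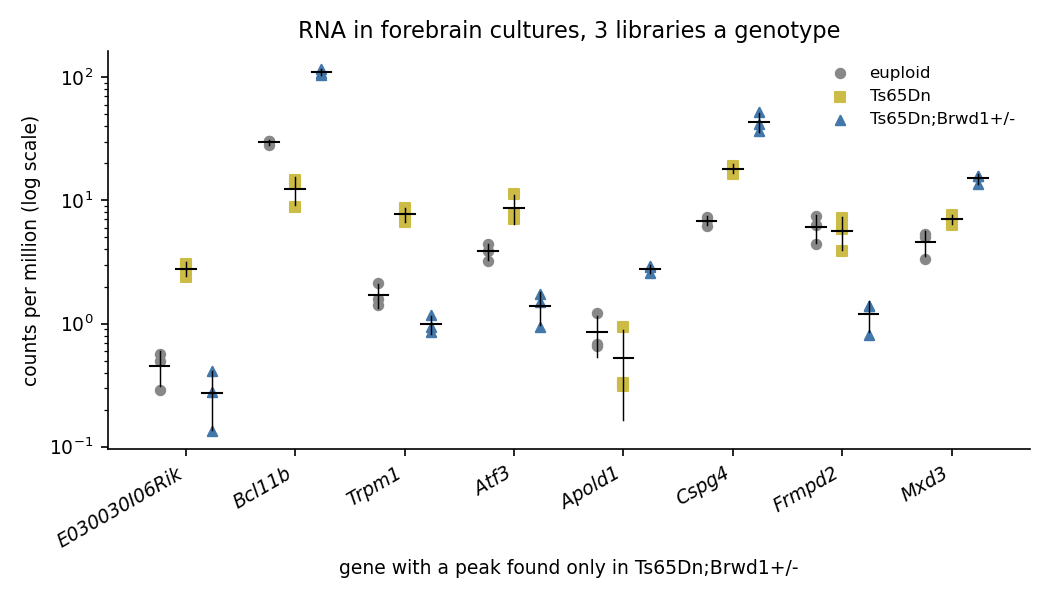
Each point is a culture library (3 per genotype) and gives CPM on a log axis for the genes with a peak found only in Ts65Dn;Brwd1+/- that changed most in either comparison, with bars for the mean and SD. Bcl11b and Cspg4 are highest and Frmpd2 and Atf3 lowest in the libraries labelled Ts65Dn;Brwd1+/-, and the genes were picked for large changes.

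Genes of the promoter set and of the lists varied. Grb2 was 0.34 higher than in Ts65Dn on the log2 scale (adjusted p = 0.0134) and Fmnl1 1.17 higher (adjusted p = 9.38e-04), while Nfia (-0.78, adjusted p = 3.38e-05), Rara (-0.44, adjusted p = 0.0125) and Fth1 (-0.34, adjusted p = 0.0116) were lower. Dst, Dusp11 and Wbp1l had values between -0.07 and 0.04 with adjusted p of 0.634 or more. Zeb2 was higher than in either genotype (0.92 and 0.45). Of the 8 adhesion genes 5 were higher than in Ts65Dn (among them Tenm2 by 1.33, Opcml by 1.18, Dlg2 by 1.02 and Nlgn2 by 0.83), Tenm3 was lower (-0.51), and none was higher than in euploid, where Csmd1 (-0.50) and Ptprd (-0.48) were lower. All 3 BAF subunit genes with such a peak were higher than in Ts65Dn, Smarcd1 by 0.94, Smarcd3 by 0.39 and Arid1b by 0.30, and Smarcd1 and Arid1b also than in euploid (0.66 and 0.70). Of the 2 ATPase genes, which had no such peak, Smarca4 was also higher than in Ts65Dn (0.58, edgeR adjusted p = 2.83e-04) and euploid (0.42, adjusted p = 0.00501). Smarca2 was not called in either (0.04 and 0.00). The other BAF genes of the list were not set beside these. Of all genes 27.6% were higher than in Ts65Dn and 30.5% lower, and of the 468 genes with a peak 209 were higher and 127 lower. The shares of all genes against euploid were 14% higher and 15.2% lower, with 71 higher and 70 lower of the 468. The 5 general neuronal markers were also higher than in Ts65Dn, and their part in the adhesion and BAF values was not tested. Sfi1, with its 24 peaks, was lower than in either genotype, with log2 fold changes of -0.50 (edgeR adjusted p = 0.00311) and -0.51 (adjusted p = 0.00598).

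The segment genes with a peak, 16 of which were tested, had 11 higher than in euploid and none lower, at a median log2 fold change of 0.66. All 134 tested genes of the segment had 61.2% higher and 3.73% lower, at 0.55. Against Ts65Dn, which has the same segment, 10 of the 16 were higher and 4 lower at a median of 0.52, where 25.4% of the 134 were higher and 30.6% lower at -0.01. Higher than in both genotypes were Tiam2 (0.75 and 1.11), Tulp4 (0.57 and 0.75), Pde10a (1.27 and 0.80), Zdhhc14 (1.08 and 0.81), Tiam1 (1.12 and 0.62) and Arid1b. Lca5l (-1.28) and Adamts1 (-1.23) were among the lower ones against Ts65Dn. With 16 genes this is a description of those genes only.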

How the data were processed

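The authors aligned reads to mm10 with HISAT2, kept those that mapped to a single place, removed duplicates and called peaks with MACS, for ChIP-seq against input. They deposited 1 annotated peak list per genotype and assay, in which fold enrichment is a linear ratio over local background and each peak has a q-value. How replicates entered a list is not given in the sources used here, and the filter stated in the methods (q under 0.05, fold over 1.2) does not describe the SMARCA2/4 lists. For RNA the authors deposited raw read counts per gene, and the strand setting is not given.

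Peaks were compared by position (1 bp or more shared, same build) with Wilson intervals, by code checked against bedtools 2.31.1 on simulated intervals. Copies are the places in the assembly that hold the median 31-base word of a peak, and 2 or more places made it several copies. Culture counts (17270070 to 25892802 in genes per library) were tested with edgeR 4.0.16 (filterByExpr, TMM, quasi-likelihood test, Benjamini-Hochberg at 0.05, 3 genotypes in 1 fit), and 5 lines without a gene (37.4 to 40.0% of counts) were left out. SE was worked back from the test, as the absolute log2 fold change over the square root of its F statistic. CPM used TMM sizes, except for Xist and the Y-linked sum, which used total counts. The methods describe cortices dissociated one embryo at a time and the labels pooled sexes, and which embryos made each library is not given, so p-values measure the spread between these libraries. The overlap and count steps were tested on simulated data.

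Named peaks were the 10 of highest fold, the 10 highest at promoters, genes with most peaks, members of the gene lists and of the triplicated segment, and per contrast the 5 genes of largest change past the threshold. Of the printed sequences, those of Gm10717 and Gm42418 were among the 6 placed peaks of lowest q-value, and the others were chosen after their values were seen. The peaks, lists and tests were chosen with earlier results of these data known. Alternatives covered the overlap rule, q-value filters, normalization, low-count filter, DESeq2 1.42.0, the replicate block and leaving out each library.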

Additional observations from a re-analysis of the deposited data

How the results depend on the processing

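Each choice was changed alone, except where q and fold were asked together and where DESeq2 brought its own normalization and filter. The count of 943 peaks fell to 583 when peaks within 300 bp counted as shared and to 418 within 1000 bp, and rose to 1088 when sharing asked for 50% of the shorter peak. With q under 0.05 asked of the Ts65Dn;Brwd1+/- list it was 500, and with that asked of all 3 lists, with or without a fold over 1.2, it was 533. The share on placed chromosomes, 83.5%, was 78.7% within 300 bp, 75.4% with the q filter on that list and 75.8% with it on all 3. The share between genes, 17.8%, rose to 21.6% within 300 bp and 24.8% within 1000 bp, and was 21.0% under each q filter. Overlap with the Ts65Dn;Brwd1+/- ATAC list, 32.1%, was 28.6% with 50% of the SMARCA2/4 peak covered or (added after seeing the data) by its centre base, and 61.0% with an ATAC peak within 1000 bp. With the ATAC rule kept it was 35.8% of the 931 placed peaks sharing under 50% of the shorter peak with the other SMARCA2/4 lists, and 26.4 and 26.0% of those over 300 and 1000 bp from them.

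Called genes numbered 336 against Ts65Dn and 141 against euploid by edgeR. Peaks with q under 0.05 gave 152 and 67 of 217 genes, and promoter peaks 205 and 91 of 299, from fewer genes tested. Leaving out 1 library gave 302 to 341 and 94 to 174 calls, the lowest of both without Ts65Dn;Brwd1+/- replicate 1. In each contrast 0 calls changed sign over 13 settings. With the replicate block the counts were 352 and 153, and since 6 and not all of 9 same-number pairs had a correlation over 0.1 (range -0.16 to 0.28), the numbers were not taken to pair libraries. Without a replicate of the peak lists, no share above has an error between animals.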
